A study of Homo sapiens with 21 samples.

Results

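The lysyl oxidase family was followed at every accessible site that lay nearest to LOX, LOXL1, LOXL2, LOXL3 or LOXL4. Membership was read from the deposited HOMER annotation, which gives each consensus site the name of the gene with the nearest transcription start. This rule gave 38 of the 367900 consensus sites, with 13 nearest to LOX, 3 to LOXL1, 10 to LOXL2, 2 to LOXL3 and 10 to LOXL4. A nearest gene need not be the gene that a site regulates. Cells of the human neuroblastoma line SK-N-BE(2) were profiled by ATAC-seq 72 h after transduction with lentivirus carrying short hairpin RNAs (shRNAs). Each of 7 groups held 3 libraries, which the series describes as biological triplicates, for 21 libraries in all. The groups were Control, shARID1A.2 and shARID1A.4 against ARID1A, shARID1B.2 and shARID1B.3 against ARID1B, and the combinations shARID1A/B.2.3 and shARID1A/B.4.2 against both genes. Control is labelled NSC in the deposited counts, read here as the study's non-silencing control. All groups, Control included, were transduced populations of this cell line. ARID1A and ARID1B are subunits of the BAF chromatin remodelling complex, and the study asked which open sites depend on them.

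Lysyl oxidases are secreted, copper-dependent amine oxidases that oxidise lysine side chains of collagen and elastin, so that the fibres become cross-linked and the matrix stiffens. LOX and LOXL1 are made with propeptides that are removed outside the cell, whereas LOXL2, LOXL3 and LOXL4 carry scavenger receptor domains. LOXL2 is also known as a partner of SNAI1 in mesenchymal cells. In ATAC-seq, the Tn5 transposase cuts open DNA, so the reads over a site rise with its accessibility. Accessibility says nothing direct about the amount of lysyl oxidase RNA or protein, nor about how far ARID1A and ARID1B were silenced, which were not analysed here.

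Central stretches of 5 distal sites are shown because 4 of them lost accessibility on combined silencing of ARID1A and ARID1B, while the remaining site, LOXL4 at 41161 bases upstream, lies between LOXL4 sites that did and was not called under the scaling used throughout. Distances are from the transcription start of the nearest gene. The stretches are the forward strand of GRCh38 at chr15:73922279-73922578, chr15:73924452-73924751, chr10:98320968-98321267, chr10:98296179-98296478 and chr10:98309233-98309532, in the order printed. Capitals mark matches to the E-box letters CANNTG, the core bound by basic helix-loop-helix factors.
LOXL1, 4020 bases upstream: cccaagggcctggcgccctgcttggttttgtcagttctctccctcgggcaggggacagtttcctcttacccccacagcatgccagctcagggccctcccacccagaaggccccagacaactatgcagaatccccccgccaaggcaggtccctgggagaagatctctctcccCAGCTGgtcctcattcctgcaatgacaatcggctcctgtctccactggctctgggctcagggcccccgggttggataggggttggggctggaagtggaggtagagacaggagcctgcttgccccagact
LOXL1, 1847 bases upstream: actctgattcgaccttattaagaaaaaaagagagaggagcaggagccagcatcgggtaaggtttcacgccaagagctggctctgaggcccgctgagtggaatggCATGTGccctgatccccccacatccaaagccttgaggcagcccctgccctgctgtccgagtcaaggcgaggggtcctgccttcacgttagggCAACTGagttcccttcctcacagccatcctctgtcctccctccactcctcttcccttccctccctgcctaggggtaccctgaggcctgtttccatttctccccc
LOXL4, 52896 bases upstream: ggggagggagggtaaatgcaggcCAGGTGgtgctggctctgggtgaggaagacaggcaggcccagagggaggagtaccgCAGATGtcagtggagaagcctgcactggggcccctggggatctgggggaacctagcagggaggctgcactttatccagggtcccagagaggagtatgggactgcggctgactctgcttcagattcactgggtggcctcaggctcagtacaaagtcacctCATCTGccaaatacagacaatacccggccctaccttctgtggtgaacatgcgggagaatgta
LOXL4, 28107 bases upstream: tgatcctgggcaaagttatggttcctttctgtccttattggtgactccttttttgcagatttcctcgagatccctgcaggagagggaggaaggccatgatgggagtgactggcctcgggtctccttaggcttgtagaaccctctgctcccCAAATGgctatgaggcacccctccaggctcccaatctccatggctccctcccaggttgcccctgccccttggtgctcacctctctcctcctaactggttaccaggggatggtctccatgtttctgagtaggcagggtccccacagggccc
LOXL4, 41161 bases upstream: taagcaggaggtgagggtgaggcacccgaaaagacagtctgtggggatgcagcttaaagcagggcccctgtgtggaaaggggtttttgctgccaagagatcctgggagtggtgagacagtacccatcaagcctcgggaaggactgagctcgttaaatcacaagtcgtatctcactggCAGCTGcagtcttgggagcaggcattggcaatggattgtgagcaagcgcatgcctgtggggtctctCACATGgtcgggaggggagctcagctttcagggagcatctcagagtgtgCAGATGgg

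E-box letters were present in the central 300 bases of all of these, closed or not. Of the 37 tested member sites, 29 held them, or 78.4%, beside 81.9% of all tested sites. The AP-1 letters TGANTCA occurred in 2 member sites, or 5.41%, beside 10.9% of all sites, and the GATA letters AGATAA in 6, or 16.2%, beside 17% of all sites. Both strands were searched, and matches to different letters could share bases.

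Of the 38 sites, 37 had enough reads to be tested, and the intron 1 site 17239 bases downstream of the LOXL2 start, at 0.191 CPM in Control, did not. CPM is the read count of a site relative to the scaled library total. The total count over all sites ranged from 16140029 to 44472230 reads per library. Replicates are few and shallow sites carry more counting error, so a change that missed the threshold may still be present. By chi-square per degree of freedom over sites, shARID1A/B.2.3 replicate 2 stood apart from its group, at 2.47 and 2.19 beside 1.09 between the others, and Control replicate 2 did so at 1.73 and 1.94 beside 1.09. Without the former, combined silencing closed 5 family sites and opened 3, beside 9.21% and 4.64% of all sites, and shARID1A/B.2.3 closed 3, beside 8.1%. Without the latter, combined silencing closed 5 and opened 0, beside 8.97% and 2.6%. The adrenergic identity of the cells was checked at promoter sites, where HAND2 stood at 43.9 CPM, PHOX2A at 24.0, DBH at 10.3 and TH at 2.43 in Control. These 4 genes had a summed level of 74.4 to 86.8 CPM in Control and 76.5 to 112.4 in silenced libraries. Of 7 markers of other cell types, 6 had no promoter site. LUM, a fibroblast gene, had one at 11.2 to 12 CPM in Control and 6.40 to 10.3 in silenced libraries, and its part in the results was not tested.

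On combined silencing, 5 of the 37 tested sites closed and none opened, with losses at LOXL1, LOXL2 and LOXL4 and no call at LOX or LOXL3. Among all 357029 tested sites, 10.3% closed and 3.43% opened, so the share of family sites that closed, 13.5%, was near the background. Closed and opened mean an adjusted p-value (FDR) under 0.01 in edgeR's quasi-likelihood test, with the mean of both combinations set against Control. The median log2 change was -0.07 over the family and 0.03 over all sites. At an unadjusted p under 0.05, 12 family sites differed, or 32.4%, near the 29.2% of all sites. None of the closed sites was annotated as a promoter site. They lay in introns or between genes, the nearest of them 1847 bases from the LOXL1 start. Most tested family sites were not promoter sites either, so these 5 cannot show a preference for either class. Among all tested promoter sites, 4.24% closed, beside the 10.3% of all tested sites. Scaling matters to the count of closed family sites. With libraries scaled on promoter sites, the median of all sites moved to -0.20, and 12 family sites closed with none opened. Genome-wide, 36610 sites closed and 12247 opened under the scaling used throughout, and 56825 and 2601 under promoter scaling, where the 15.9% of all sites that closed compares with 12 of 37 in the family.

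**Figure D1:**
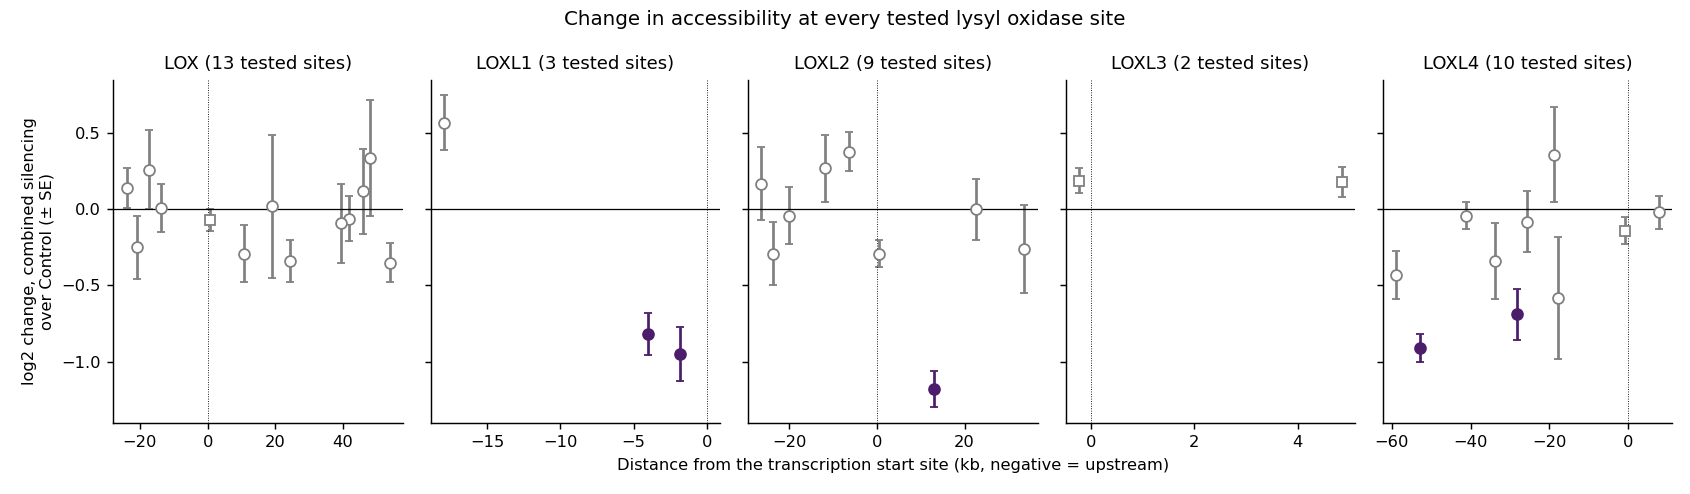
Change in accessibility on combined silencing against the distance from the transcription start of the nearest gene, in kb, for the 37 tested sites, with a panel for each gene. Points are log2 changes with SE, squares are promoter sites, and filled points have an FDR under 0.01; the 5 filled points lie at LOXL1, LOXL2 and LOXL4, from -0.69 to -1.18.

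LOXL2, which cross-links collagen IV of basement membranes, held the site with the largest fall of the family. This site lay in intron 1 of 13, 12942 bases downstream of the start, at chr8:23389848-23392687 (GRCh38), and the current GENCODE annotation also places it in an intron of ENTPD4. Control libraries read 5.82, 6.66 and 6.45 CPM. shARID1A/B.2.3 libraries read 2.30, 2.21 and 2.94 CPM, and shARID1A/B.4.2 libraries 3.00, 3.45 and 3.11. All 6 combination libraries lay below all Control libraries. The combined log2 change was -1.18 ± 0.12 (SE), with an edgeR FDR of 1.74e-13.

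The single-shRNA groups lay between these levels or near the combinations. shARID1A.2 libraries read 4.12, 4.26 and 3.59 CPM, and shARID1A.4 libraries 2.88, 2.91 and 3.26, again all below Control. shARID1B.2 read 3.88, 5.98 and 4.28 CPM and shARID1B.3 read 4.66, 5.52 and 4.08, with a shARID1B.2 library inside the Control range. ARID1A silencing, the mean of its shRNAs, gave a log2 change of -0.87 ± 0.12 (edgeR FDR 4.18e-08), whereas ARID1B silencing gave -0.41 ± 0.12 and missed the threshold with an edgeR FDR of 0.0118. The difference between the genes was itself past the threshold, at -0.45 ± 0.11 (edgeR FDR 0.00175), a call lost, with 0 family sites lower for ARID1A, without shARID1B.2 replicate 2, shARID1B.3 replicate 2, shARID1A.2 replicate 3 or shARID1A.4 replicate 1. Combined silencing was lower than the mean of the 4 single-shRNA groups by -0.54 ± 0.10 on the log2 scale (edgeR FDR 1.01e-05). In the order of group means, Control did not overlap shARID1B.3, the next group, nor did shARID1A.2 overlap shARID1A/B.4.2, while the other neighbours overlapped.

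None of the other 8 tested LOXL2 sites was called for combined silencing. At the start used for distances, a site 394 bases into the gene (chr8:23402976-23404655, intron 1) read 16.4, 14.7 and 16.6 CPM in Control. Combination libraries read between 11.01 and 13.9 CPM, with a median of 13.3, and none reached the lowest Control library. The combined log2 change of -0.29 ± 0.09 fell at the threshold, with an edgeR FDR of 0.01 that did not pass it. It passed at -0.53 under promoter scaling (edgeR FDR 6.13e-09), at -0.31 with offsets that follow abundance (edgeR FDR 5.86e-04), at -0.29 with total counts (edgeR FDR 0.00358) and at -0.29 with a replicate block (edgeR FDR 0.00464). shARID1A/B.2.3 alone passed, at -0.35 ± 0.10 (edgeR FDR 0.00855), and shARID1A/B.4.2 gave -0.24 ± 0.10 (edgeR FDR 0.109). A site 6442 bases upstream of this start was chosen after its values were seen. Its centre lies in introns of LOXL2 and ENTPD4 in GENCODE, where LOXL2 extends beyond this start. The site was higher in every silenced group mean. It opened with shARID1A/B.4.2, from 3.54 ± 0.234 CPM in Control to 5.26 ± 0.275 (SD, n = 3 each), by 0.57 ± 0.15 on the log2 scale (edgeR FDR 0.00227). The site also opened with shARID1B.2, at 5.33 ± 0.162 CPM, by 0.59. All 6 ARID1B libraries lay above Control, but ARID1B silencing as the mean of its shRNAs was not called. The 9 tested LOXL2 sites together had a median change of -0.04.

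**Figure D2:**
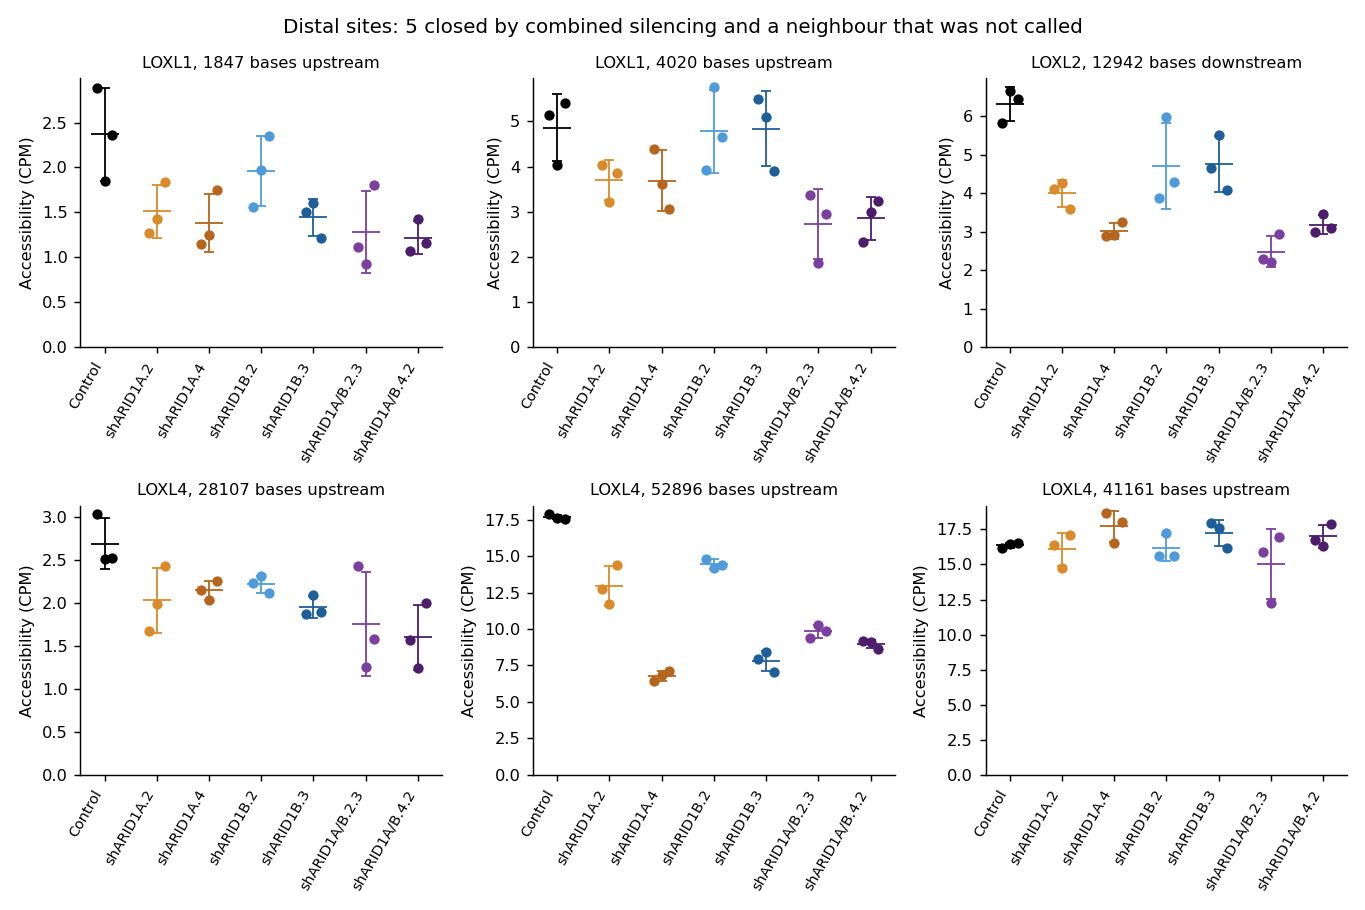
Accessibility in CPM of each library at the 5 sites closed by combined silencing and at the LOXL4 site 41161 bases upstream, which was not called, for the 7 groups. Points are libraries, bars are the mean with SD (n = 3), and axes start at 0; at LOXL4 52896 bases upstream, every silenced library lies below the Control libraries.

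LOXL1, the family member tied to elastic fibre upkeep, had 3 member sites, of which 2 closed. Both lay in intron 1 of LOXL1-AS1, the antisense transcript that starts beside LOXL1. The site 4020 bases upstream (chr15:73921664-73923193) read 5.15, 4.03 and 5.41 CPM in Control. shARID1A/B.2.3 libraries read 3.38, 1.86 and 2.94 CPM, and shARID1A/B.4.2 libraries 2.33, 2.99 and 3.25. Combination and Control libraries did not overlap, while libraries of every single-shRNA group overlapped Control. The combined change was -0.82 ± 0.14 (edgeR FDR 2.10e-06), with -0.39 ± 0.14 for ARID1A silencing (edgeR FDR 0.0577) and -0.01 ± 0.13 for ARID1B silencing (edgeR FDR 0.981). Against the mean of the single-shRNA groups, the combinations were lower by -0.62 ± 0.11 on the log2 scale (edgeR FDR 3.01e-06).

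Nearer the LOXL1 start, at 1847 bases upstream (chr15:73924325-73924878), Control libraries read 2.89, 1.85 and 2.37 CPM. Combination libraries ranged from 0.929 to 1.80 CPM with a median of 1.14, and ARID1A libraries from 1.14 to 1.84 with a median of 1.34. Neither range reached the lowest Control library. Combined silencing lowered the site by -0.95 ± 0.18 on the log2 scale (edgeR FDR 2.36e-05). For ARID1A silencing the change was -0.72 ± 0.18 (edgeR FDR 0.00353), a call that DESeq2 did not make (adjusted p 0.0178) and that was lost without any of Control replicates 1 and 3, shARID1A.2 replicates 1 and 2 or shARID1A.4 replicates 1 and 2, with the largest edgeR FDR, 0.0843, at -0.56 without Control replicate 1. ARID1B silencing gave -0.46 ± 0.17 (edgeR FDR 0.0867). The count at this site was low, 24 to 69 reads per library. The LOXL1 site 17935 bases upstream, chosen after its values were seen, was higher in every silenced group mean than in Control. It stood at 1.68 ± 0.137 CPM in Control and 2.87 ± 0.247 in shARID1A/B.4.2, where it opened by 0.78 ± 0.20 (edgeR FDR 0.00209). The combined change of 0.57 ± 0.18 had an edgeR FDR of 0.0114. This site also opened with shARID1A.2, at 3.02 ± 0.564 CPM, by 0.85, and with shARID1B.3, at 2.63 ± 0.159 CPM, by 0.66. shARID1A.4, shARID1B.2 and shARID1A/B.2.3 gave no call there.

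LOXL4, whose product cross-links collagens of the matrix, had 2 closed sites among 10, both of them between genes. The site 52896 bases upstream of its start (chr10:98320382-98321852) was among the strongest distal sites of the family, at 17.9, 17.6 and 17.6 CPM in Control. shARID1A/B.2.3 libraries read 9.36, 10.3 and 9.85 CPM, and shARID1A/B.4.2 libraries 9.19, 9.11 and 8.63. All silenced libraries, in all 6 groups, lay below all Control libraries. The combined change was -0.91 ± 0.09 (edgeR FDR 3.83e-15). ARID1A silencing gave -0.91 ± 0.09 (edgeR FDR 4.89e-14) and ARID1B silencing -0.73 ± 0.09 (edgeR FDR 1.53e-10).

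At this LOXL4 site the shRNAs of a gene read apart. shARID1A.4 read 6.46, 6.84 and 7.14 CPM, whereas shARID1A.2 read 12.7, 11.7 and 14.4. shARID1B.3 read 7.93, 8.41 and 7.06 CPM, and shARID1B.2 read 14.8, 14.2 and 14.4. Within each gene the ranges did not overlap, a difference that was not tested. Against Control, shARID1A.4 changed by -1.38 ± 0.11 and shARID1B.3 by -1.17 ± 0.10, with edgeR FDRs of 1.32e-17 and 2.77e-16. shARID1A.2 changed by -0.45 ± 0.10 (edgeR FDR 8.00e-04), and shARID1B.2, at -0.29 ± 0.10, missed the threshold (edgeR FDR 0.0775). Against the mean of the single-shRNA groups, combined silencing differed by -0.09 ± 0.07, with a 95% interval of -0.22 to 0.04 (edgeR FDR 0.443). That mean joins unlike groups. All combination libraries lay below those of shARID1A.2 and shARID1B.2 and above those of shARID1A.4 and shARID1B.3.

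The strong neighbour between the closed LOXL4 sites, at 41161 bases upstream (chr10:98308359-98310406), read 16.2, 16.4 and 16.5 CPM in Control. Combination libraries ranged from 12.2 to 17.9 CPM with a median of 16.6, overlapping Control. Its combined change was -0.04 ± 0.09, with a 95% interval of -0.21 to 0.13 (edgeR FDR 0.806). Without shARID1A/B.2.3 replicate 2, the lowest of these libraries, it was 0.06. Under promoter scaling the site was called closed, at -0.28 (edgeR FDR 0.00206). The weaker site at 28107 bases upstream (chr10:98295519-98297138) read 3.03, 2.51 and 2.53 CPM in Control and 1.24 to 2.43 in the combinations, with a median of 1.58. Those ranges did not overlap, and the combined change was -0.69 ± 0.17 (edgeR FDR 7.94e-04). Without Control replicate 1 the call was lost, at -0.60 and an edgeR FDR of 0.0177.

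The LOXL4 promoter site, 846 bases upstream of the start (chr10:98267322-98270812), separated the combinations. Control libraries read 13.1, 11.7 and 12.7 CPM, shARID1A/B.2.3 libraries 10.3, 8.43 and 10.6, and shARID1A/B.4.2 libraries 12.7, 13.2 and 13.6. Combination shARID1A/B.2.3 lay wholly under Control and shARID1A/B.4.2 overlapped it. The former changed by -0.36 ± 0.10 (edgeR FDR 0.00708) and the latter by 0.08 ± 0.10 (edgeR FDR 0.708), and they differed from each other by -0.44 ± 0.10 (edgeR FDR 0.00185). Both combinations together gave -0.14 ± 0.09 (edgeR FDR 0.317), or -0.38 and past the threshold under promoter scaling.

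LOXL3, an oxidase known for its role in cartilage and palate collagen, had no closed site. GENCODE places the centre of its promoter site, 235 bases upstream (chr2:74553122-74555276), in an exon of DOK1 and an intron of LOXL3. This site read 29.7, 26.5 and 31.7 CPM in Control. shARID1A.2 read 37.6, 35.3 and 36.2 CPM and shARID1A.4 read 38.8, 36.5 and 39.8, all above Control. ARID1A silencing opened the site by 0.35 ± 0.08 (edgeR FDR 6.01e-04), and it was higher than under ARID1B silencing by 0.25 ± 0.06 (edgeR FDR 0.00353), a call lost without shARID1B.2 replicate 1 or 3 or shARID1A.4 replicate 3. The ARID1A call depended on scaling: the change was 0.17 (edgeR FDR 0.0666) with libraries scaled on promoter sites and 0.19 (edgeR FDR 0.0291) with offsets that follow abundance, and it was 0.31 (edgeR FDR 0.0118) without Control replicate 2. Promoter sites as a class had a median change of 0.18 under ARID1A silencing and 17.8% of them opened. Combined silencing gave 0.19 ± 0.08 (edgeR FDR 0.0693), which turned to -0.04 under promoter scaling and passed the threshold, at 0.28 (edgeR FDR 0.00268), without shARID1A/B.2.3 replicate 2.

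The other LOXL3 site lies 4853 bases inside the gene, over the promoter of the neighbouring DOK1 (chr2:74548412-74549810). Control libraries read 11.7, 9.74 and 13.6 CPM, shARID1A/B.2.3 libraries 12.3, 9.73 and 11.7, and shARID1A/B.4.2 libraries 16.3, 15.2 and 15.7. The last of these groups lay above Control and the other overlapped it. It opened with shARID1A/B.4.2, by 0.43 ± 0.12 (edgeR FDR 0.0044), and the combinations differed by -0.49 ± 0.11 (edgeR FDR 0.00138). Under promoter scaling the change of both combinations together, 0.18, turned to -0.05.

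LOX, the founding member of the family, had no called site among 13 in the combined, ARID1A or ARID1B comparison. Its promoter site (chr5:122076652-122078653), centred 708 bases into the gene over an exon, read 29.6, 31.7 and 28.5 CPM in Control. Combination libraries ranged from 27.3 to 29.5 CPM with a median of 28.8 and overlapped Control. The combined change was -0.07 ± 0.07, with a 95% interval of -0.21 to 0.08 (edgeR FDR 0.604), and became -0.30 under promoter scaling and -0.22 with abundance-following offsets, both past the threshold. The ARID1B libraries, from 24.4 to 28.3 CPM, all lay below Control, but the change of -0.16 ± 0.07 missed the threshold (edgeR FDR 0.214). Of its distal sites, the intron site 53813 bases downstream (chr5:122023033-122026061, within SRFBP1) had the smallest p for combined silencing, at -0.35 ± 0.13 (edgeR FDR 0.0526), and passed the threshold at -0.59 under promoter scaling (edgeR FDR 7.92e-04). Across the 13 LOX sites the combined change ran from -0.35 to 0.34, with a median of -0.06, and 2 of them had an unadjusted p under 0.05.

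**Figure D3:**
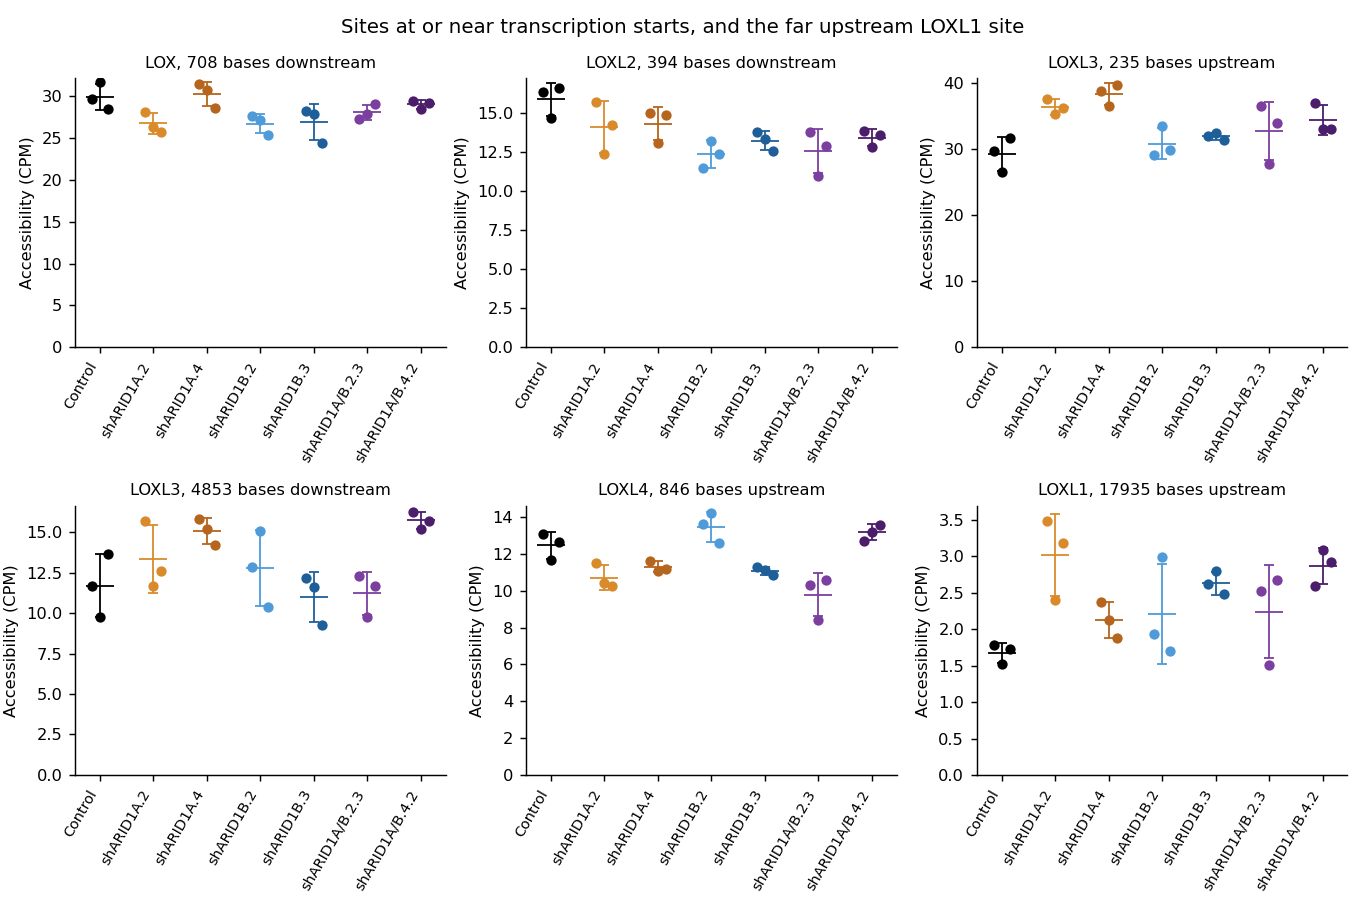
Accessibility in CPM of each library at the sites on or near transcription starts and at the LOXL1 site 17935 bases upstream, for the 7 groups. Points are libraries, bars are the mean with SD (n = 3), and axes start at 0; LOXL3 at 235 bases upstream stands above Control in the 6 ARID1A libraries, and the LOX promoter overlaps Control in both combinations.

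Silencing of ARID1A or ARID1B alone gave smaller counts of calls. ARID1A silencing closed 3 of the 37 sites and opened 1, beside 5.37% closed and 1.67% opened of all sites, and with promoter scaling the family counts were 8 and 0, beside 9.55% and 0.336%. ARID1B silencing closed 1 and opened none, beside 3.53% and 1.39%, with 11 sites, or 29.7%, at an unadjusted p under 0.05, beside 19.7% of all sites. The combinations were lower than the mean of the single-shRNA groups at 2 sites, LOXL2 in intron 1 and LOXL1 at 4020 bases upstream. They were higher at none, beside 6.85% lower and 0.969% higher of all sites. ARID1A and ARID1B silencing differed at 2 sites, lower for ARID1A at LOXL2 and higher at the LOXL3 promoter, beside 3.69% lower and 1.05% higher of all sites. Counted by library ranges, all combination libraries lay below all Control libraries at 6 family sites and above at none, beside 10.8% and 4.85% of all sites. For ARID1A silencing these counts were 6 and 3, beside 7.14% and 3.15%, and for ARID1B silencing 5 and 2, beside 5.36% and 2.96%. These comparisons share libraries and are not independent of each other.

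Combination shARID1A/B.2.3 closed 7 family sites and opened none, beside 10.4% and 2.85% of all sites. Combination shARID1A/B.4.2 closed 5 and opened 3, beside 7.37% and 3.97%, and with promoter scaling closed 10 and opened none, beside 15.1% and 0.81%. The sites opened by shARID1A/B.4.2 were those of LOXL1 at 17935 bases upstream, LOXL2 at 6442 bases upstream and LOXL3 at 4853 bases downstream. Set against each other, the combinations differed at 2 sites, both lower with shARID1A/B.2.3, beside 3.79% lower and 1.43% higher of all sites; promoter scaling or abundance-following offsets left neither call, and none was left without shARID1A/B.2.3 replicate 2.

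Among the single shRNAs, shARID1A.2 closed 2 sites and opened 1, beside 4.54% and 0.834% of all sites. shARID1A.4 closed 3 and opened 1, beside 4.17% and 2.28%. shARID1B.2 closed none and opened 1, beside 1.84% and 1.34%, with 7 sites, or 18.9%, at an unadjusted p under 0.05, beside 17.5% of all sites. shARID1B.3 closed 1 and opened 1, beside 4.88% and 3.12%. The LOXL2 intron 1 site was closed by both ARID1A shRNAs and called with neither ARID1B shRNA.

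**Figure D4:**
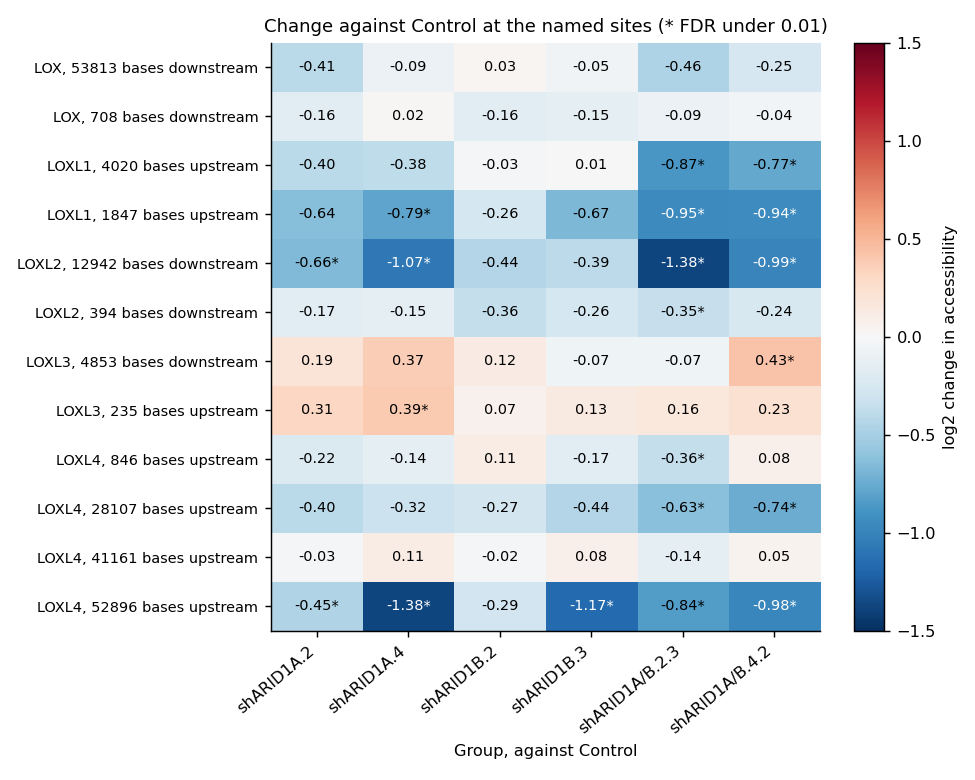
Log2 change against Control at the 12 sites named by rule, for the 4 single shRNAs and both combinations. Cells carry the value, blue is lower and red is higher than Control, and an asterisk marks an FDR under 0.01; LOXL4 at 52896 bases upstream runs from -0.29 to -1.38 between shRNAs.

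Levels were also summed over the tested sites of each gene, which gives a description within a gene and no test. LOXL2 summed to 32.3 ± 1.42 CPM (SD, n = 3) in Control and 26.0 to 29.6 in the silenced group means. Control did not overlap the next group in the order, shARID1B.3. It did overlap shARID1A.2, whose highest library read 31.24 CPM, beside 30.7 for the lowest Control library. LOXL4 stood at 61.9 ± 2.76 CPM in Control and was lowest at 47.8 ± 4.57 in shARID1A/B.2.3, with Control and shARID1B.2 overlapping at the top and shARID1B.2 clear of shARID1A.2 below it. LOXL3 was lowest in Control, at 41.0 ± 4.56 CPM, and highest in shARID1A.4, at 53.4 ± 1.51, with every neighbour in the order overlapping. LOXL1 ranged from 6.25 ± 1.70 CPM in shARID1A/B.2.3 to 8.95 ± 1.66 in shARID1B.2, again with overlapping neighbours. LOX stayed between 45.7 ± 1.62 CPM in shARID1B.2 and 50.3 ± 1.58 in Control. Per length, the start sites of Control stood at 14.96 CPM per kb for LOX, 13.6 for LOXL3, 9.47 for LOXL2 and 3.57 for LOXL4, while the distal LOXL4 site at 52896 bases upstream stood at 12.01.

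The genes whose summed accessibility moved most like each member over the 21 libraries were sought among 22194 genes. For LOXL2 these were SYPL1 (Pearson r 0.911), DFNA5 (0.899) and ANKRD6 (0.893), and for LOXL4 they were LHFPL2 (0.949), RIN3 (0.942) and LRRC15 (0.942). LOXL3 followed FKBP11 (0.938), GPALPP1 (0.938) and COL9A2 (0.937), and LOXL1 followed LOC101927617 (0.932), EXOSC7 (0.922) and LOC101929388 (0.922). LOX had weaker likenesses, with DCDC2C at 0.795, NR1D2 at 0.792 and HMGB2 at 0.784. The points share libraries, depth and scaling, and the values are a description.

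Genes that work with the lysyl oxidases were read from a list of 30, in which 71 of 696 tested sites closed on combined silencing and 10 opened. That is 10.2% and 1.44%, beside 10.3% and 3.43% of all sites, near the background for closing and under it for opening. The shares that follow by role were not tested against the background. Among substrates, the collagens and ELN (elastin), 19 of 84 sites closed, or 22.6%, including 5 of 16 at ELN, 4 of 15 at COL4A1 and 4 of 15 at COL5A1. Of the inducers and partners, 26 of 130 sites closed, or 20%, with 12 of 29 at TWIST1, a mesenchymal transcription factor, and 2 closed and 2 opened of 6 at SNAI1. Propeptide proteases and scaffolds had 13 of 219 closed, or 5.94%, none of 17 at FN1 (fibronectin) and 2 of 10 at BMP1, the protease that releases mature LOX. Copper supply genes had 4 of 53 closed, or 7.55%, with 2 of 7 at ATOX1, a copper chaperone. Lysyl hydroxylases had 9 of 210 closed, or 4.29%, of which 4 of 5 were at PLOD1, with a median log2 change of -1.36, and 5 of 204 were at PLOD2.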

How the data were processed

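ATAC-seq libraries were grouped by the treatment named in their labels. Per the labels, the authors aligned reads to GRCh38; the aligner, peak caller, their versions and any Tn5 shift were not given in the sources used here. Raw read counts of each library over a consensus set of sites were deposited, with a HOMER annotation. The deposited tables also held 36 columns of normalized counts and the authors' own DESeq2 log2 ratios and p-values, which were not used. Counts were tested in edgeR (4.0.16, R 4.3.3) by the quasi-likelihood test with TMM scaling, filterByExpr (minimum count 10), all 7 groups in 1 model without covariates and Benjamini-Hochberg adjustment over 357029 sites, leaving out 10871; the common biological coefficient of variation was 0.0817. The SE was derived from the test statistic. CPM used TMM-scaled totals. Every replicate pair differed by more than counting noise (chi-square per degree of freedom 1.08 to 2.47), so p-values rest on the spread between these libraries. Alternatives were DESeq2 (1.42.0), other scalings, no filter, a replicate block, only the groups compared, stricter and looser thresholds, and each library left out.

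For each gene, every promoter site, the strongest site, the site with the smallest p for combined silencing and every site called for combined, ARID1A or ARID1B silencing were named. The members, gene lists and motifs were chosen with earlier results of these data known. Like patterns used log2(CPM + 0.5) of summed counts for genes at 5 CPM or more. The script was tested on simulated data. Genomic sequence and gene overlaps were read from GRCh38 and GENCODE.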

Additional observations from a re-analysis of the deposited data

Results flagged for a closer look

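Differences between groups passed edgeR's test of the difference itself at 5 family sites. Against the mean of the single-shRNA groups, combined silencing was lower at the LOXL1 site 4020 bases upstream, by a log2 difference of -0.62. It was also lower at the LOXL2 intron 1 site 12942 bases downstream, by -0.54. At the latter, shARID1A.4, with a mean of 3.02 CPM, stood below shARID1A/B.4.2, at 3.19, and overlapped shARID1A/B.2.3. The combinations were not tested against ARID1A silencing alone. That LOXL2 site was also lower under ARID1A than ARID1B silencing, by -0.45. The LOXL3 promoter site 235 bases upstream was higher under ARID1A than ARID1B silencing by 0.25. Combination shARID1A/B.2.3 lay below shARID1A/B.4.2 at the LOXL3 site 4853 bases downstream, by -0.49, and at the LOXL4 promoter site 846 bases upstream, by -0.44. The ARID1A against ARID1B calls were each lost when certain single libraries were left out, and both calls between the combinations were lost without shARID1A/B.2.3 replicate 2. Dixon's test of single values was not applied to groups of 3 libraries.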

How the results depend on the processing

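The LOXL2 intron 1 site kept its call for combined silencing under every alternative run, from -1.04 to -1.42. Scaling on promoter sites closed 12 family sites on combined and 4 on ARID1B silencing, beside 15.9% and 5.77% of all sites. It closed 8 and opened 0 on ARID1A silencing, beside 9.55% and 0.336%. With shARID1A/B.4.2 it closed 10 and opened 0, beside 15.1% and 0.81%. ARID1A silencing was lower than ARID1B silencing at 2, beside 4.5%, and shARID1A/B.2.3 lower than shARID1A/B.4.2 at 0, beside 1.8%. The combined change at LOXL3 turned to -0.05 at 4853 bases downstream and -0.04 at 235 bases upstream. Abundance-following offsets gave 2 opened by combined silencing and 3 closed by ARID1B silencing, beside 4.39% and 3.7% of all sites. They gave 4 closed by shARID1A/B.2.3, beside 9.6%. They also gave 2 higher for ARID1A than ARID1B silencing, beside 1.29%, and 0 lower between the combinations, beside 2.72%. Total counts gave 1 opened by combined and 3 closed by ARID1B silencing, beside 4.02% and 3.82% of all sites. With shARID1A/B.2.3 they closed 4, beside 9.58%. Without the filter, 1 site opened on combined and 2 on ARID1A silencing, beside 3.79% and 2.14% of all sites. Fitting only the groups compared gave 2 opened by ARID1A silencing, beside 2.14% of all sites, and 4 closed by shARID1A/B.2.3, beside 9.42%. It also gave 2 lower for ARID1A than ARID1B silencing, beside 4.32%.

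At an FDR under 0.05, combined silencing opened 2, ARID1A silencing opened 2, ARID1B silencing closed 3 and opened 2, ARID1A against ARID1B silencing had 2 lower and 2 higher, and the combinations had 1 higher. Asking also for an absolute log2 change of 1 or more left 1 closed by combined silencing and 1 by shARID1A/B.2.3, and 0 for the other counts of these comparisons that had any call. Shares of all sites at these thresholds are not given here. The 4 single shRNAs were not recounted under the alternatives. Sites inside the gene bodies in place of nearest sites were an alternative chosen after seeing the data. Of 36 such sites tested, 10 closed on combined, 7 on ARID1A and 5 on ARID1B silencing. Among all tested sites, 10.3%, 5.37% and 3.53% closed. With a replicate block, 1 site opened on combined and 3 closed on ARID1B silencing, beside 3.86% and 3.77% of all sites. Replicate numbers did not pair most libraries: of 63 same-number pairs, 4 had deviations correlated above 0.1, and the median of the 63 was 0.0047. The values ran from -0.16 to 0.305. The highest were among replicate 2 libraries, at 0.305 for Control with shARID1A/B.2.3, 0.1731 for shARID1A.2 with shARID1A/B.2.3 and 0.1565 for Control with shARID1A.2. A shared source of these deviations was not tested.

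Each library was left out in turn, and shares of all sites follow each count. Combined silencing closed 4 to 5 and opened 0 to 3, beside 8.36% to 9.54% and 2.6% to 4.64%. ARID1A silencing closed 2 to 3 and opened 0 to 2, beside 3.98% to 4.95% and 0.731% to 2.58%. ARID1B silencing closed 1 to 2 and opened 0 to 0, beside 2.54% to 3.25% and 0.694% to 1.6%. shARID1A/B.2.3 closed 3 to 6 and opened 0 to 0, beside 8.1% to 9.6% and 1.88% to 2.95%. shARID1A/B.4.2 closed 2 to 5 and opened 1 to 3, beside 5.49% to 6.42% and 2.84% to 3.64%. Combined against single silencing had 2 to 3 lower and 0 to 0 higher, beside 5.38% to 6.74% and 0.6% to 1.12%. ARID1A against ARID1B silencing had 0 to 2 lower and 0 to 2 higher, beside 2.95% to 3.54% and 0.775% to 1.16%. The combinations had 0 to 2 lower and 0 to 0 higher, beside 2.43% to 3.9% and 0.842% to 1.24%. Without shARID1A/B.2.3 replicate 2, combined silencing opened 3 and that combination closed 3, beside 4.64% and 8.1% of all sites. The combinations then differed at 0, beside 2.43% lower and 0.97% higher. Without shARID1A/B.4.2 replicate 1, combined silencing opened 1, beside 3.47%. That combination then closed 2 and opened 1, beside 5.52% and 3.43%, and the combinations had 1 lower, beside 2.79%. Without shARID1A/B.4.2 replicate 3, that combination opened 1, beside 2.84%, and the combinations had 1 lower, beside 2.57%. Without Control replicate 1, shARID1A/B.2.3 closed 4 and shARID1A/B.4.2 closed 3, beside 8.69% and 6.14%. Without Control replicate 3, shARID1A/B.2.3 closed 4, beside 8.64%. ARID1A silencing opened 0 without Control replicate 2 and 2 without shARID1A.2 replicate 2, beside 0.731% and 2.58%. ARID1B silencing closed 2 without replicate 2 of either shRNA, beside 3.24% without that of shARID1B.2 and 2.92% without that of shARID1B.3. For ARID1A against ARID1B silencing, 2 were lower without shARID1B.3 replicate 3 and 2 higher without shARID1B.2 replicate 2, beside 3.54% and 0.908%. The change at the LOXL4 site 41161 bases upstream ran from -0.06 to 0.06 over the libraries left out, was 0.06 without shARID1A/B.2.3 replicate 2, and was -0.28 and past the threshold under promoter scaling. The cause of these shifts was not tested. Depth limits sites near 1 CPM, where counts are few.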

Other observations

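Sites centred inside the family's gene bodies, whichever gene they lay nearest, were read as a set chosen after the values were seen. Of 38 such sites, 36 were tested and 10 closed on combined silencing, beside 10.3% of all tested sites. Among these, 24 tested sites lay nearest another gene, and 9 of them closed and none opened: 6 of 15 in LOXL2 and 3 of 5 in LOXL1.

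In the body of LOXL2, the largest fall was at chr8:23362964-23363851 (GRCh38), over an exon of LOC100507156. Control libraries read 11.5, 8.26 and 10.2 CPM. shARID1A/B.2.3 libraries read 2.07, 1.72 and 2.33 CPM, and shARID1A/B.4.2 libraries 3.09, 2.76 and 2.32. The combinations lay wholly below Control, with a log2 change of -2.09 ± 0.12 (edgeR FDR 3.78e-27), beside -1.40 for ARID1A and -1.06 for ARID1B silencing. A site nearest R3HCC1 at chr8:23306504-23307095 changed by -1.63 ± 0.21 (edgeR FDR 5.57e-10).

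In the body of LOXL1, a site at chr15:73944246-73945425, in intron 2 of LOXL1, read 3.56, 2.75 and 4.09 CPM in Control and 1.14 to 1.58 CPM in the combinations. It changed by -1.32 ± 0.15 (edgeR FDR 1.14e-11), and by -0.65 ± 0.15 for ARID1A silencing (edgeR FDR 6.83e-04). The site over exon 1 of LOXL1, at 6.23 ± 0.885 CPM in Control, changed by 0.18 ± 0.12 (edgeR FDR 0.329).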
